A study of Mus musculus with 18 samples.

Results

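The 10 genes described here carry the insulin signal from its receptor to the FoxO transcription factors: the receptor *Insr*, the adaptors *Irs1* and *Irs2*, the phosphoinositide 3-kinase subunits *Pik3r1* and *Pik3ca*, the kinases *Akt1* and *Akt2*, the transcription factors *Foxo1* and *Foxo3*, and *Ptpn1*, the gene of a phosphatase that acts on the receptor. They were chosen by name, with earlier results of these data known, and all 10 were found among the 23352 gene symbols of the tables, each as 1 entry per library with none of its 180 estimates failed. All 10 were among the 10835 genes tested. Liver RNA came from 9 wild-type (WT) and 9 *Gpr180*KO male mice, all 20 weeks old and all fed a high-fat diet (HFD), with 1 library per mouse. *Gpr180*KO mice were C57BL/6J mice lacking exon 6 of *Gpr180* in the whole body after CRISPR/Cas9 cutting in the flanking introns, and WT controls descended from the same heterozygous founders after backcrossing. The knockout is not restricted to hepatocytes, and the values are those of whole liver.

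When insulin binds its receptor in hepatocytes, the receptor phosphorylates Irs proteins, which recruit phosphoinositide 3-kinase, and the lipid it makes brings Akt to the membrane. Akt phosphorylates FoxO proteins, which then leave the nucleus and no longer drive genes of glucose output, while other branches raise lipid synthesis. These steps run through phosphorylation, which RNA levels do not measure. FoxO proteins are also known to drive *Irs2* and *Insr* themselves when insulin is low, and the *Irs2* promoter is known for an insulin response element beside an E-box.

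The promoter windows of *Irs1*, *Irs2*, *Foxo1* and *Foxo3* are shown as those of the adaptor pair and of the FoxO pair; the levels of *Irs2* correlated with those of both FoxO genes between livers, with and without KO51. RefSeq windows (GRCm38.p6) matched 9 of the 10 members, with 14 windows in all. *Insr* had no window, so its promoter was not searched for any motif. Each sequence runs 5′ to 3′ along the gene's strand over the 250 bases before the RefSeq start, or, for *Foxo3*, over the 203 of them that lie outside the gene as the tables place it. The *Irs2* start lay 499 bases upstream of the *Irs2* locus of the tables. Capitals mark CACGTG (an E-box) and TGTTTTG (the core of the insulin response element), which overlap in *Irs1*.
Irs1 (chr1:82291440-82291689, minus strand): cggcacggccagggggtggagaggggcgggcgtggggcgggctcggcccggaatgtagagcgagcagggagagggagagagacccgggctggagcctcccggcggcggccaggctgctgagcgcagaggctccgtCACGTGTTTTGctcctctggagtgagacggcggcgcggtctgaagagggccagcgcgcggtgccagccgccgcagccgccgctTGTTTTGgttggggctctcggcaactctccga
Irs2 (chr8:11008930-11009179, minus strand): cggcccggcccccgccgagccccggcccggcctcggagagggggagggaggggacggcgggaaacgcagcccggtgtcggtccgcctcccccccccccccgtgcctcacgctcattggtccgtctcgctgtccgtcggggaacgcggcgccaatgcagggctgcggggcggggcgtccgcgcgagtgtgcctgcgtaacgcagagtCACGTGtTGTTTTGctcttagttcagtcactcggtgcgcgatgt
Foxo1 (chr3:52268087-52268336, plus strand): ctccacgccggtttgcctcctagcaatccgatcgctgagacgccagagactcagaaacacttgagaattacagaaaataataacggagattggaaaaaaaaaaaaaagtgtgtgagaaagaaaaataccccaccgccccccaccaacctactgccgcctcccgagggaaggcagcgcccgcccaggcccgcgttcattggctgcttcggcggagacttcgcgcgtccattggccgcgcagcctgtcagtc
Foxo3 (chr10:42276743-42276945, minus strand): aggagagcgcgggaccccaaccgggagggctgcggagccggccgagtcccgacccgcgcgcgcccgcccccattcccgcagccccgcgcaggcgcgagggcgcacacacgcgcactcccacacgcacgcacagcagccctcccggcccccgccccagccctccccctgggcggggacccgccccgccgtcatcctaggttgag

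Both strands of the 250 bases before each start were searched for CACGTG, for TGTTTTG and for GTAAACA, a core to which FoxO proteins bind. TGTTTTG was found in 5.56% of the 32851 RefSeq promoter windows, CACGTG in 6.02% and GTAAACA in 3.17%. Both CACGTG and TGTTTTG were in 0.295% of the windows and in those of *Irs1* and *Irs2*. In *Irs2* the E-box began 44 bases and TGTTTTG 37 bases before the start. In *Irs1* the E-box began 115 bases before the start, and TGTTTTG was found at 111 and 32 bases before it. Neither motif nor GTAAACA was in the windows of *Foxo1* and *Foxo3*, and GTAAACA was found, on the opposite strand, in 1 of the 14 member windows, that of *Akt1*. These matches describe letters in these windows and show no binding.

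Several facts of the libraries bear on the values. *Gpr180* itself had 23.6% of the WT mean in *Gpr180*KO livers, and all 9 *Gpr180*KO livers were below every WT liver. FPKM divides reads by transcript length and by mapped reads of a library, so that levels of different genes can be set side by side. A dependence on length can remain, as in KO51 below, and the tables give no counts. The study's methods state an approximate range of reads per sample, and the depth of each library and the reads behind each value are unknown. Sample titles come in 2 styles, here called number-first (4 mice per genotype) and diet-first (5 per genotype); what distinguishes them is not given in the sources used here. The *Gpr180*KO library KO51, of the diet-first style, stood apart from the others. Its values fell with transcript length: relative to the other *Gpr180*KO libraries, the median gene was higher by 0.81 on the log2(FPKM + 0.1) scale among 717 genes with transcripts under 1 kb and lower by 1.36 (-1.36) among 488 genes with transcripts of 8 kb or more. The corresponding medians of the other 17 libraries lay between -0.26 and 0.24 in every length class. Defining hepatocyte genes such as *Apoa1* were high in every library, where the 7 hepatocyte markers summed to 18354 to 34999.7 FPKM, and the highest sum was that of KO51.

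**Figure D1:**
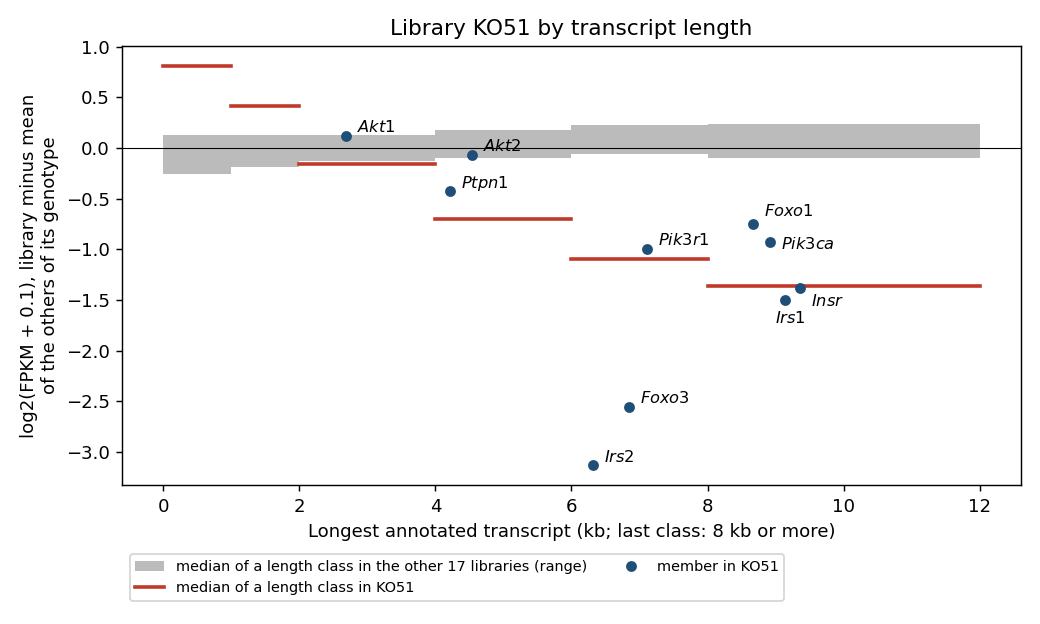
Difference of library KO51 from the mean of the other *Gpr180*KO libraries on the log2(FPKM + 0.1) scale (vertical axis) against the length of the longest annotated transcript in kb (horizontal axis). Red lines are medians of genes in 6 length classes in KO51, grey bands the range of the same medians in the other 17 libraries, and blue points the members; *Irs2* (-3.13) and *Foxo3* (-2.55) lie far below the line of their class, and *Akt1* and *Akt2* near 0.

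In KO51 the members followed this pattern unevenly. *Akt1*, whose longest transcript has 2.69 kb, stood at 109% of the mean of the other *Gpr180*KO livers, and *Akt2* (4.54 kb) at 95%. *Ptpn1* (4.21 kb) stood at 73.7%. The 4 members with transcripts of 8 kb or more were at 32.9% (*Irs1*), 38.0% (*Insr*), 51.7% (*Pik3ca*) and 58.2% (*Foxo1*). *Irs2* (6.32 kb) fell to 7.93% and *Foxo3* (6.85 kb) to 15.4%, far below the median of their length class, which was lower by 1.09 (-1.09) on the log2 scale. RNA quality was not given in the sources used here, and its part in these values was not tested. Values without KO51 are given beside the genotype results of the members.

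None of the 10 members differed between genotypes at an adjusted p under 0.05 (limma, Benjamini-Hochberg adjustment over all genes tested), with or without KO51. Of all genes tested, 4.73% passed that threshold, and 7.28% did without KO51. At an unadjusted p under 0.05 there were 2 of 10 members, *Akt1* and *Ptpn1*, against 22.2% of all genes. The fitted difference was negative for 9 of 10 members, as it was for 76.9% of all genes, and the median over the members was -0.11 on the log2 scale against -0.13 over all genes. The libraries thus differ as a whole on this scale, and scaling them by median of ratios moved the median of all genes to 0.02. With that scaling the estimates of *Insr*, *Pik3ca*, *Akt2* and *Foxo1* turned from negative to positive. Differences are for this reason also given relative to the median of all genes.

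**Figure D2:**
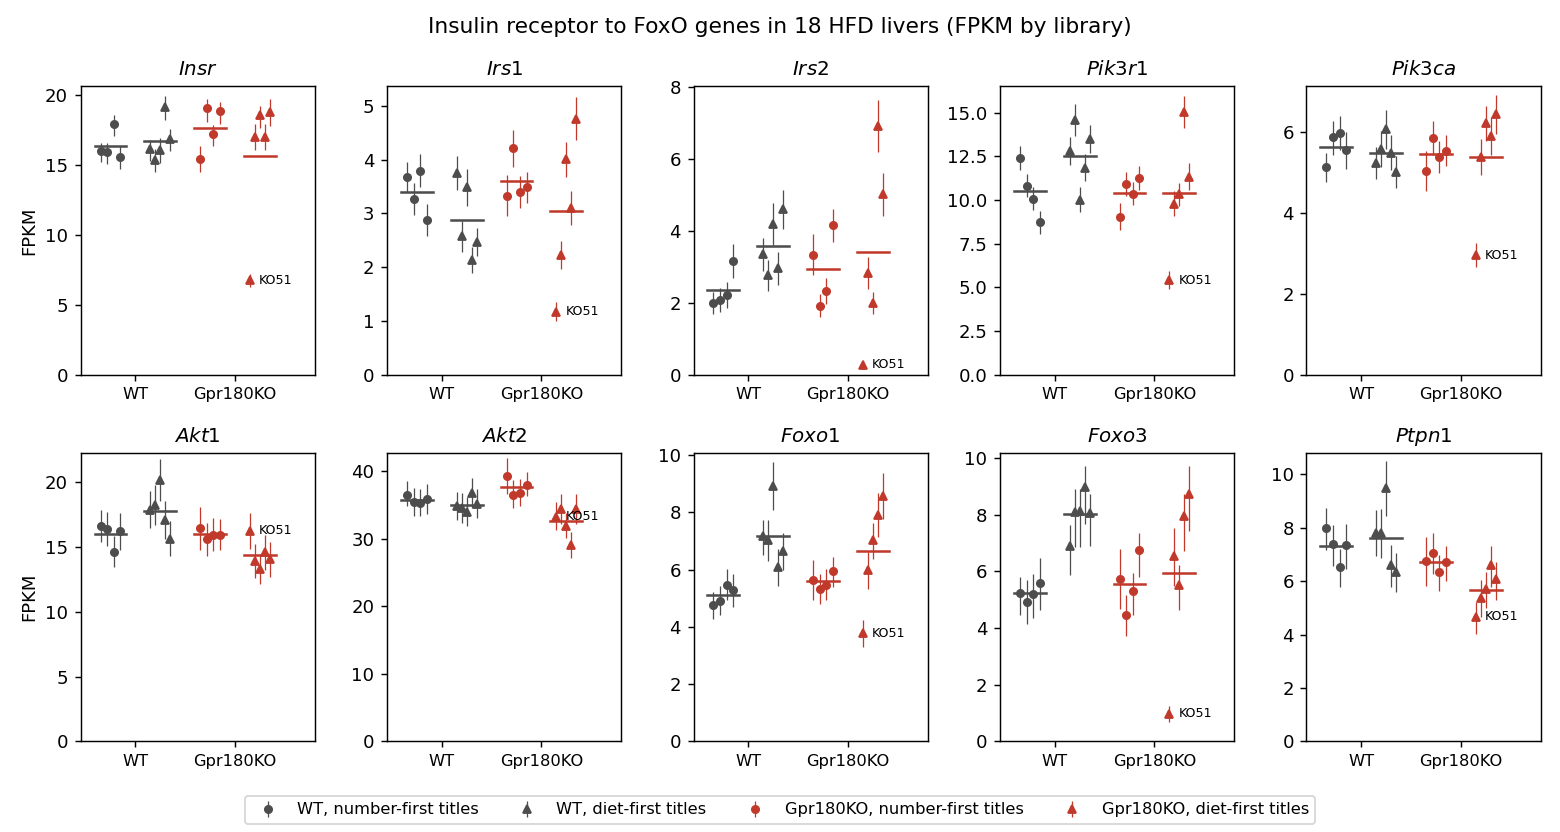
FPKM (vertical axis, from 0) of the 10 members in each of the 18 libraries. Circles are number-first and triangles diet-first titles, grey WT and red *Gpr180*KO, thin bars the bounds deposited with each value, and horizontal lines the mean of each subgroup; KO51 is the lowest point for 8 members and not for *Akt1* or *Akt2*.

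*Insr*, on chromosome 8 from 3150922 to 3279617 (mm10), encodes the receptor. It ranged from 15.3 to 19.2 FPKM (median 16.1) in WT and from 6.74 to 19.0 FPKM (median 17.2) in *Gpr180*KO livers. The groups overlapped, and apart from KO51 the *Gpr180*KO livers lay between 15.4 and 19.0 FPKM. The WT mean was 16.5 ± 1.25 FPKM (SD, n = 9) and that of *Gpr180*KO livers 16.5 ± 3.85 FPKM (SD, n = 9), or 17.7 ± 1.27 FPKM (SD, n = 8) without KO51. The log2 difference was -0.05 (SE 0.15, adjusted p = 0.849, limma) and turned to 0.10 (SE 0.06, adjusted p = 0.315, limma) without KO51. With median-of-ratios scaling and title style as a block as well, it was 0.23 (adjusted p = 0.0301, limma) without KO51. In that fit 1438 of 10859 genes tested passed. The wide spread of the *Gpr180*KO group over all libraries came from KO51.

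The adaptors were the least abundant members. *Irs1* (chromosome 1, 82233105 to 82291439) ranged from 2.14 to 3.79 FPKM (median 3.26) in WT and from 1.17 to 4.76 FPKM (median 3.39) in *Gpr180*KO livers. The log2 difference was 0.02 (SE 0.20, adjusted p = 0.966, limma) and 0.18 (SE 0.14) without KO51. *Irs2* (chromosome 8, 10986964 to 11008430) ranged from 2.00 to 4.60 FPKM (median 2.96) in WT and from 0.283 to 6.94 FPKM (median 2.83) in *Gpr180*KO livers. Both the lowest and the highest *Irs2* values of the study were thus in *Gpr180*KO livers, in KO51 and KO54. *Irs2* was the most variable member, with a coefficient of variation of 30.0% in WT livers and 48.6% in *Gpr180*KO livers without KO51. Its deposited bounds typically lay about 15% from each value, at a confidence level that is not given. Its log2 difference was -0.20 with a 95% interval of -1.0 to 0.61, and 0.15 without KO51, with an interval of -0.35 to 0.65. The intervals of *Irs2* were the widest of the members in both fits.

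Of the kinase subunits, the regulatory *Pik3r1* (chromosome 13, 101680762 to 101768217) was above the catalytic *Pik3ca* (chromosome 3, 32436151 to 32468486) in every library. *Pik3r1* ranged from 8.72 to 14.6 FPKM (median 11.8) in WT and from 5.42 to 15.0 FPKM (median 10.3) in *Gpr180*KO livers, 8 of which were below the WT mean. The log2 difference was -0.19 (SE 0.14, adjusted p = 0.442, limma), and -0.08 (SE 0.11) without KO51. *Pik3ca* was steadier, with 5.03 to 6.07 FPKM (median 5.56) in WT and 2.96 to 6.44 FPKM (median 5.55) in *Gpr180*KO livers. Its log2 difference was -0.06 (SE 0.11), and 0.04 (SE 0.06) without KO51.

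*Akt2*, the main Akt isoform of the hepatocyte response to insulin, was the most abundant member. It lies on chromosome 7 from 27591560 to 27639453 and ranged from 34.0 to 36.7 FPKM (median 35.3) in WT and from 29.0 to 39.2 FPKM (median 34.4) in *Gpr180*KO livers. The 9 WT livers differed by a coefficient of variation of 2.55%. The deposited bounds typically lay 6.0% from each value. Their confidence level is not given, so they cannot be compared directly with that coefficient. The 9 *Gpr180*KO livers spread over 9.11%, and 9.52% without KO51, with number-first livers at 36.5 to 39.2 FPKM and diet-first livers at 29.0 to 34.4 FPKM. The log2 difference was -0.03, with a 95% interval of -0.16 to 0.10, the narrowest of the members, and -0.02 without KO51.

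*Akt1* (chromosome 12, 112653821 to 112674276), the more widely expressed isoform, ranged from 14.6 to 20.1 FPKM (median 16.7) in WT and from 13.3 to 16.4 FPKM (median 15.6) in *Gpr180*KO livers. All 9 *Gpr180*KO livers were below the WT mean, and 4 were below the lowest WT liver. The *Gpr180*KO mean of 15.1 ± 1.16 FPKM (SD, n = 9) was 89.0% of the WT mean of 17 ± 1.61 FPKM (SD, n = 9). The log2 difference of -0.17 (SE 0.07, unadjusted p = 0.0278, limma) did not pass adjustment (adjusted p = 0.170), nor did it without KO51, where it was -0.18 (adjusted p = 0.101). Relative to the median of all genes it was -0.04.

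*Foxo1* (chromosome 3, 52268337 to 52350109), the main FoxO factor of hepatic glucose output, had nearly the same level in both genotypes. It ranged from 4.75 to 8.92 FPKM (median 6.09) in WT and from 3.78 to 8.56 FPKM (median 5.96) in *Gpr180*KO livers. Its log2 difference was -0.02 (SE 0.14), and 0.06 (SE 0.13) without KO51. *Foxo3* (chromosome 10, 42185786 to 42276742), a paralog with overlapping targets, ranged from 4.93 to 8.99 FPKM (median 6.90) in WT and from 0.982 to 8.73 FPKM (median 5.74) in *Gpr180*KO livers. Its log2 difference was the lowest of the members, -0.37 (SE 0.29, adjusted p = 0.456, limma). Without KO51 it was -0.09 (SE 0.15, adjusted p = 0.760, limma), so most of the *Foxo3* difference came from that library.

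*Ptpn1* (chromosome 2, 167932327 to 167979385) encodes PTP1B, which dephosphorylates the insulin receptor. It ranged from 6.34 to 9.50 FPKM (median 7.39) in WT and from 4.66 to 7.07 FPKM (median 6.36) in *Gpr180*KO livers. The groups overlapped, but all 9 *Gpr180*KO livers were below the WT mean, 4 were below the lowest WT liver, and 6 WT livers were above the highest *Gpr180*KO liver. The means were 7.47 ± 0.973 FPKM (SD, n = 9) and 6.14 ± 0.775 FPKM (SD, n = 9), a *Gpr180*KO level of 82.2% of WT, and of 84.7% without KO51. The log2 difference was -0.28 (SE 0.09, unadjusted p = 0.00677, adjusted p = 0.0831, limma), and -0.23 (adjusted p = 0.0832, limma) without KO51. The adjusted p fell to 0.0488 without the WT library W157 and to 0.0444 with title style as a block and KO51 left out. Of all genes tested, 920 of 10851 passed without W157, and 1989 of 10867 with the block and KO51 left out. Median-of-ratios scaling reduced the difference to -0.13 (adjusted p = 0.373), and relative to the median of all genes it was -0.15.

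Some cell type markers differed between genotypes, whereas *Ptpn1* and *Akt1*, which many cell types express, did not pass adjustment over all libraries. Of the 7 hepatocyte markers, 6 had a positive estimate and 1, *Serpina1c*, was higher in *Gpr180*KO livers (0.52, adjusted p = 0.0436, limma), but not without KO51 (adjusted p = 0.0505). Of the 7 macrophage markers tested, 3 were lower in *Gpr180*KO livers (*Cd68*, *Trem2* and *Gpnmb*), and the list summed to 90.8 to 189 FPKM in WT and 99.5 to 135 FPKM in *Gpr180*KO livers. The remaining macrophage markers did not pass, with a positive estimate for *Clec4f* (0.16) and negative ones for *Vsig4* (-0.23), *Csf1r* (-0.14) and *Marco* (-0.06). Of 6 stellate cell and fibroblast markers, 3 were lower (*Dcn*, *Col1a1* and *Pdgfrb*), with sums of 133.6 to 232 FPKM in WT and 75 to 122 FPKM in *Gpr180*KO livers. Most of these sums was *Dcn*, with a mean of 144 FPKM in WT and 89.7 FPKM in *Gpr180*KO livers. None of 6 endothelial markers passed (sums 78.9 to 124 and 71.9 to 112 FPKM). The macrophage and stellate cell calls also passed without KO51. Of all genes tested, 4.73% passed, and 7.28% without KO51. With median-of-ratios scaling 2 macrophage and 3 stellate cell markers passed. Of the other lists, *Plin1* of the 4 adipocyte markers and *Ckm* of the 3 muscle markers were listed at 0 in every library, and the 3 pancreas markers summed to at most 1.01 FPKM. Lymphocyte markers summed to 3.84 to 9.70 FPKM in WT and 2.78 to 5.97 FPKM in *Gpr180*KO livers, biliary markers to 2.72 to 6.02 and 1.43 to 3.43 FPKM (*Sox9*, the 1 of them tested, was lower, adjusted p = 0.0454, limma), and the adipocyte list to 1.6 to 46.7 and 4.36 to 278 FPKM, nearly all of it *Cfd*; the 278 FPKM were in KO51, and the other *Gpr180*KO livers reached 97.1 FPKM. With median-of-ratios scaling *Sox9* did not pass. In whole liver, fewer cells of a type and less RNA per cell cannot be told apart, and the part of these cells in the *Ptpn1* and *Akt1* values was not tested.

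**Figure D3:**
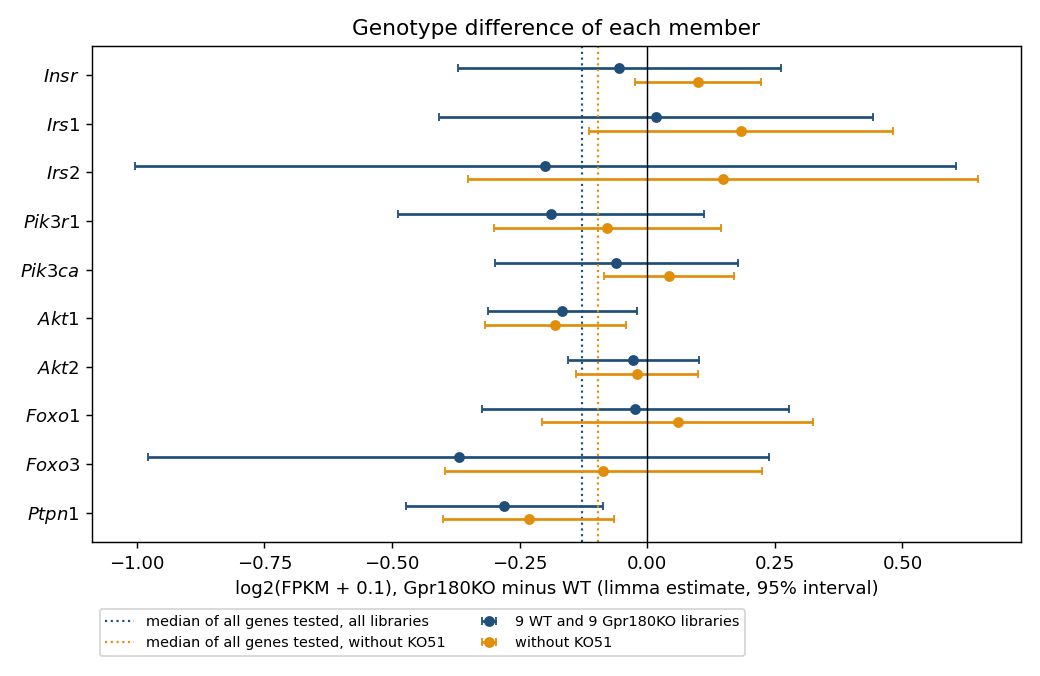
Limma estimate of *Gpr180*KO minus WT on the log2(FPKM + 0.1) scale (horizontal axis) with its 95% interval for each member, over all libraries (blue) and without KO51 (orange). Dotted lines are the medians of all genes tested (-0.13 and -0.10); the intervals of *Akt1* and *Ptpn1* lie below 0 in both fits before adjustment for the number of genes tested.

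In WT livers it ran from *Akt2* (mean 35.4 FPKM) over *Akt1* (17), *Insr* (16.5), *Pik3r1* (11.6), *Ptpn1* (7.47), *Foxo3* (6.79), *Foxo1* (6.25), *Pik3ca* (5.55) and *Irs1* (3.11) to *Irs2* (3.04 FPKM). *Akt2* was above every other member in all livers. *Akt1* and *Insr* did not differ beyond their spread, with *Akt1* higher in 6 of 9 WT livers. Neither did the neighbours *Ptpn1* and *Foxo3*, *Foxo3* and *Foxo1*, *Foxo1* and *Pik3ca*, or *Irs1* and *Irs2*. In *Gpr180*KO livers *Insr* (16.5 FPKM) stood before *Akt1* (15.1 FPKM), in 7 of 9 livers, and *Foxo1* (6.19 FPKM) before *Ptpn1* (6.14) and *Foxo3* (5.77), within their spread. The other members kept their order. Without KO51 *Foxo1* (6.49 FPKM) stood before *Foxo3* (6.37) and *Ptpn1* (6.33), and *Irs2* (3.571) before *Irs1* (3.563), also within their spread.

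A ratio of 2 members within a library does not depend on scaling between libraries, and 5 such ratios were compared by two-sided exact permutation tests. It can still carry an effect of transcript length where the 2 members differ in length, as *Insr* (9.36 kb) and *Ptpn1* (4.21 kb) do. None of the 5 passed adjustment over the 5 ratios. The ratio of *Insr* to *Ptpn1*, the receptor to the phosphatase that acts on it, had a median of 2.12 (1.69 to 2.91) in WT and 2.70 (1.45 to 3.26) in *Gpr180*KO livers. On the log2 scale it was higher in *Gpr180*KO livers by 0.23 (exact permutation p = 0.141, adjusted p = 0.235). KO51 had the lowest ratio, and without it the remaining 8 *Gpr180*KO livers lay between 2.29 and 3.26, with a log2 difference of 0.33 (exact permutation p = 0.00917, adjusted p = 0.0459). The difference was 0.22 in number-first livers (exact permutation p = 0.114, adjusted p = 0.357). With 4 livers per genotype there were 70 splits, too few for 1 ratio alone to pass adjustment over 5. In diet-first livers, with KO51 included, it was 0.23 (exact permutation p = 0.413, adjusted p = 0.413).

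*Akt1* to *Akt2* had a median of 0.463 (0.415 to 0.593) in WT and 0.421 (0.404 to 0.503) in *Gpr180*KO livers, lower by 0.14 (-0.14) on the log2 scale (exact permutation p = 0.0430, adjusted p = 0.191). Without KO51 the difference was -0.16 (adjusted p = 0.0590, exact permutation test). *Foxo1* to *Foxo3* lay between 0.677 and 1.10 in WT livers and between 0.882 and 1.27 in *Gpr180*KO livers other than KO51, where it was 3.85. Its log2 difference of 0.35 (exact permutation p = 0.0763) fell to 0.15 without that library. *Pik3r1* to *Pik3ca* and *Irs1* to *Irs2* gave exact permutation p values of 0.281 and 0.545, and of 0.337 and 0.910 without KO51. The *Irs1* to *Irs2* ratio ranged from 0.536 to 1.84 in WT livers, so which adaptor was the more abundant differed from liver to liver.

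**Figure D4:**
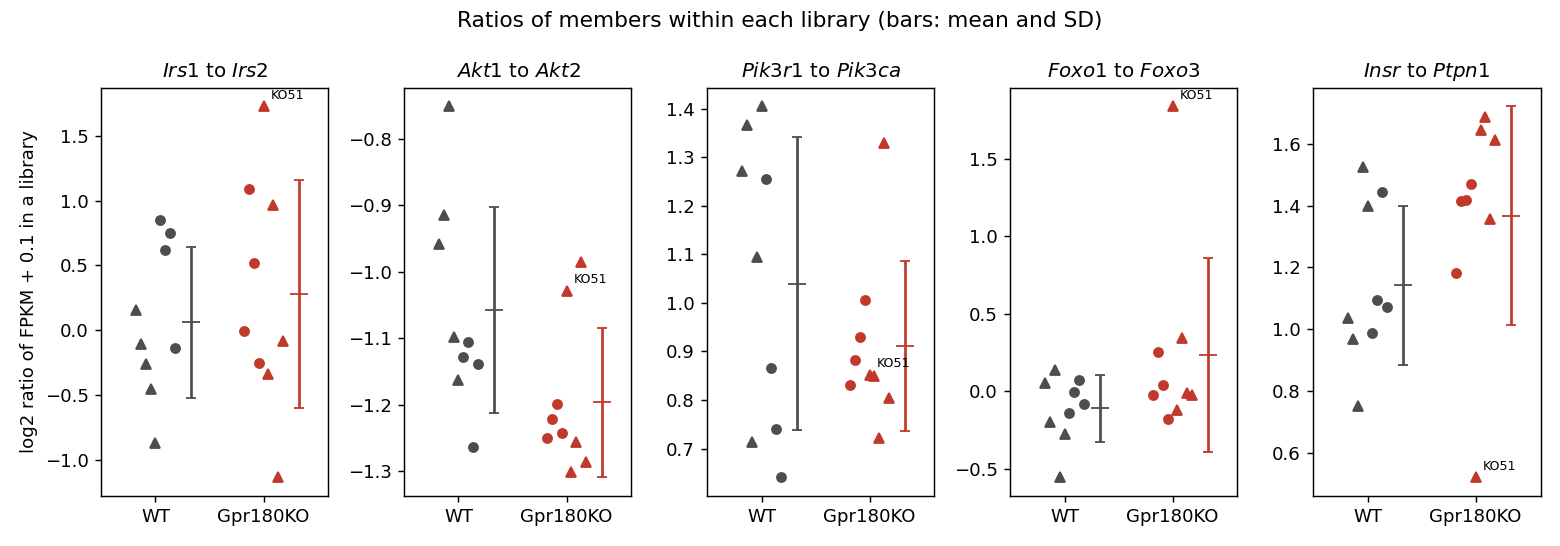
Log2 ratio of FPKM + 0.1 of 2 members in each library (vertical axis), by genotype, with circles for number-first and triangles for diet-first titles; bars beside the points are mean and SD. In the panel of *Insr* to *Ptpn1* KO51 (0.52) is the lowest of all libraries, while the other *Gpr180*KO livers lie between 1.18 and 1.69.

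Whether the genotype difference depended on title style was tested by limma's interaction term. None of the 10 members passed (0.0% of all genes did), and at an unadjusted p under 0.05 there was 1 member, *Akt1*, against 7.69% of all genes. Number-first *Akt1* was 14.6 to 16.7 FPKM in WT and 15.6 to 16.4 FPKM in *Gpr180*KO livers, with equal means of 16 FPKM. Diet-first *Akt1* was 15.7 to 20.1 FPKM in WT and 13.3 to 16.3 FPKM in *Gpr180*KO livers. The difference between the styles was -0.30 (SE 0.12, unadjusted p = 0.0212, adjusted p = 0.603, limma), and -0.35 (adjusted p = 0.204) without KO51. *Ptpn1* was lower in *Gpr180*KO livers by 0.12 (-0.12) in number-first and by 0.41 (-0.41) in diet-first livers, with no detectable difference between the styles (adjusted p = 0.718, limma).

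*Foxo1* and *Foxo3* were also compared between the title styles, after the values had been seen. In WT livers *Foxo1* was 4.75 to 5.47 FPKM in the 4 number-first and 6.09 to 8.92 FPKM in the 5 diet-first livers. *Foxo3* was 4.93 to 5.59 FPKM in number-first and 6.90 to 8.99 FPKM in diet-first WT livers. In *Gpr180*KO livers other than KO51, *Foxo1* was 5.34 to 5.96 and 5.98 to 8.56 FPKM, and *Foxo3* 4.46 to 6.76 and 5.52 to 8.73 FPKM. Over all libraries and with genotype in the model, the log2 difference of diet-first minus number-first was 0.33 for *Foxo1* (adjusted p = 0.0632, limma) and 0.21 for *Foxo3* (adjusted p = 0.657). Without KO51 it was 0.43 for *Foxo1* (SE 0.08, adjusted p = 0.000449) and 0.49 for *Foxo3* (SE 0.10, adjusted p = 0.000815).

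Title style was a strong contrast in the whole table, and this share is the measure for those calls: 0 of 10 members and 22.9% of all genes passed, and 2 of 10 members and 41.7% of all genes without KO51. At an unadjusted p under 0.05 there were 2 members, *Foxo1* and *Akt2*, against 36.2% of all genes. *Irs2* had the largest estimate without KO51, 0.49 (SE 0.21, adjusted p = 0.0710, limma), and *Irs1* the lowest, -0.17 (SE 0.14). Of the circadian clock genes, *Dbp*, a clock output gene, was 4.11 to 7.28 FPKM in number-first and 1.69 to 30.1 FPKM in diet-first WT livers. In the same order, *Arntl* was 6.06 to 8.73 and 2.15 to 11.2 FPKM, and *Per2* 1.95 to 3.75 and 2.51 to 5.09 FPKM. In *Gpr180*KO livers *Dbp* was 3.43 to 7.89 and 2.00 to 16.4 FPKM, and *Arntl* 5.51 to 6.83 and 3.35 to 10.5 FPKM. *Per2* was 2.07 to 3.34 and 0.851 to 3.08 FPKM there. The diet-first median of *Per2* was thus the higher in WT (3.91 against 2.77 FPKM) and the lower in *Gpr180*KO livers (1.82 against 2.40 FPKM). The spread of these clock genes was not tested. Of the 9 clock genes tested, 1, *Per1*, differed between the styles, both with and without KO51. The hour of sampling is not in the labels, and its part in the member values was not tested.

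Deviations from the genotype mean were correlated across libraries, as a description over libraries that share scaling. Over all 18 libraries 24 of the 45 pairs of members had a Pearson correlation over 0.5, but without KO51 4 pairs had one. Over these 17 libraries they were *Akt1* with *Ptpn1* (0.82), *Foxo1* with *Foxo3* (0.79), *Irs2* with *Foxo3* (0.79) and *Irs2* with *Foxo1* (0.68). With the means of title style within genotype also removed, these values were 0.88, 0.37, 0.77 and 0.56, and 7 pairs were over 0.5. The other 4 of these were *Irs1* with *Foxo1* (0.65), *Foxo1* with *Ptpn1* (0.63), *Pik3ca* with *Foxo1* (0.61) and *Irs1* with *Pik3ca* (0.55). *Akt1* with *Ptpn1*, *Irs2* with *Foxo3* and *Irs2* with *Foxo1* were over 0.5 in each of the 3 ways of computing. Over all 18 libraries their values were 0.54, 0.94 and 0.78. Otherwise the pairs over 0.5 differed between the 3 ways. The share of all gene pairs over 0.5 was not computed. The adaptors *Irs1* and *Irs2*, whose windows share both motifs, had a correlation of 0.56 over all 18 libraries, -0.18 without KO51 and -0.02 with title style also removed.

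**Figure D5:**
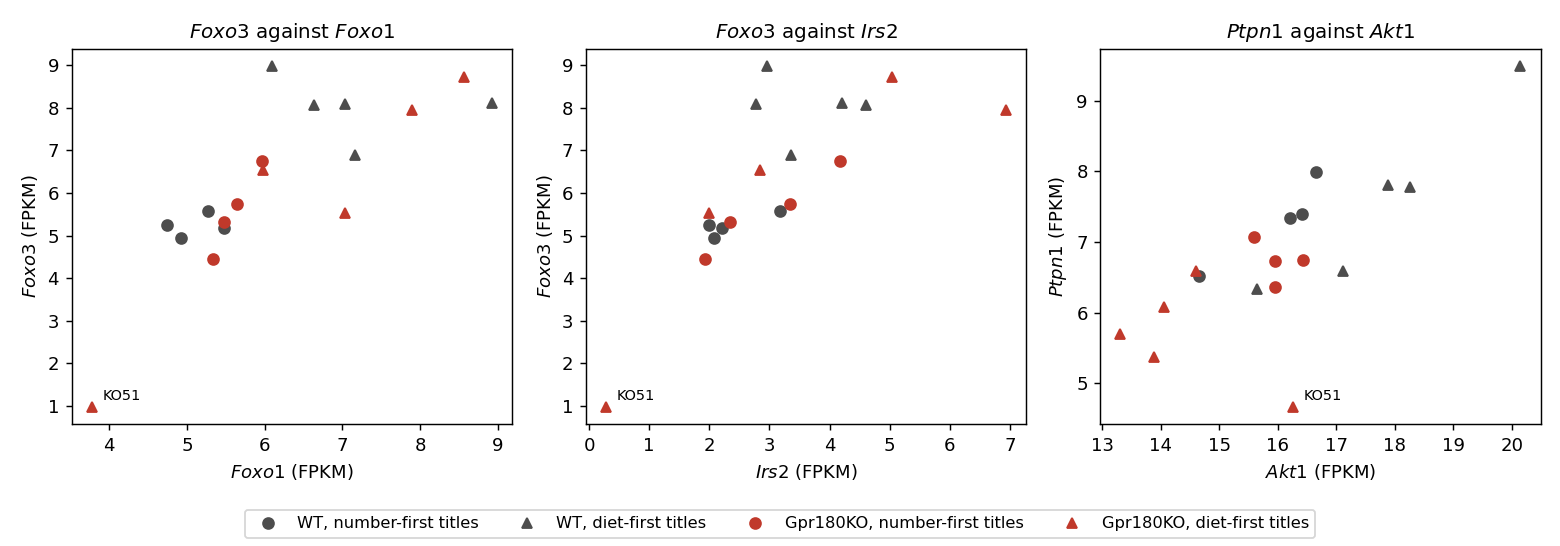
FPKM of *Foxo3* against *Foxo1*, *Foxo3* against *Irs2*, and *Ptpn1* against *Akt1*, 1 point per library, with grey for WT, red for *Gpr180*KO, circles for number-first and triangles for diet-first titles. KO51 lies at the lower left in the first and second panels and off the trend in the third; without it the correlations of the deviations were 0.79, 0.79 and 0.82.

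The 3 genes most like each member over all 18 libraries had correlations between 0.825 and 0.974 after removal of genotype means. For *Insr* they were *Birc6*, *Smg1* and *Atrn*, for *Irs2* *Ncoa6*, *Sec24b* and *Arid1a*, for *Foxo3* *Dvl3*, *Mll5* and *Spen*, and for *Pik3ca* *Mob1a*, *Atp7a* and *Gabpb2*. For *Irs1* they were *Sept11*, *Necap1* and *Papola*, for *Pik3r1* *Npat*, *Mctp2* and *Ncoa3*, for *Foxo1* *Ell2*, *Wac* and *Tle4*, and for *Ptpn1* *Tfe3*, *Net1* and *Golga5*. For *Akt1* they were *Fam207a*, *H1f0* and *Map7d1*, and for *Akt2* *Slc41a1*, *Rara* and *6430706D22Rik*. Of these 30 genes, 7 were again among the first 3 without KO51: *Sept11* and *Necap1* for *Irs1*, *Npat* and *Ncoa3* for *Pik3r1*, *Fam207a* for *Akt1*, *Slc41a1* for *Akt2* and *Ell2* for *Foxo1*.

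Other genes of the pathway were read from lists chosen by function. Of 79 genes, 64 were tested and 2 were called, both lower, which is 0 called higher, against 4.73% of all genes. They were *Acaca*, the acetyl-CoA carboxylase of fatty acid synthesis, and *Ptpra*, a receptor-type tyrosine phosphatase. The estimate was negative for 49 of the 64, and their median was -0.15 against -0.13 over all genes.

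*Acaca* ranged from 22.7 to 37.1 FPKM (mean 31.4) in WT livers and had a mean of 20.9 FPKM in *Gpr180*KO livers, 66.7% of WT. Its log2 difference was -0.63 (SE 0.16, adjusted p = 0.0337, limma), and -0.54 (adjusted p = 0.0356) without KO51, but with median-of-ratios scaling its adjusted p was 0.0652. *Ptpra* had 12.7 ± 0.838 FPKM (SD, n = 9) in WT livers and a mean of 10.6 FPKM in *Gpr180*KO livers, 8 of which were below the lowest WT liver. The log2 difference was -0.27 (SE 0.07, adjusted p = 0.0302, limma) and -0.24 (adjusted p = 0.0217) without KO51, and median-of-ratios scaling reduced it to -0.12 (adjusted p = 0.314). Both calls were lost without any 1 of the libraries W317, W318, W320, W133, KO52 or KO53 (adjusted p from 0.0520 to 0.0759), *Acaca* also without KO54 (0.0622) or KO56 (0.0528), and *Ptpra* also without W156 (0.0520).

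By list, none of 11 receptors and adaptors tested passed, with *Shc1* at -0.20 and *Grb2* at -0.11 on the log2 scale. None of 4 further subunits of phosphoinositide 3-kinase passed; *Pik3cb* had -0.28 and *Pik3cd*, a subunit of leukocytes, -0.65 (adjusted p = 0.0805, limma; 0.0377 without W157 and 0.0258 with title style as a block). Among 8 lipid phosphatases, PDK1 and Akt regulators, none passed, with *Inpp5d* at -0.47. The 6 Akt substrates tested had no call (*Gsk3a* -0.12, *Gsk3b* -0.30), nor had the 7 kinases and SOCS proteins that restrain Irs proteins (*Mapk8* -0.14, *Mapk9* -0.15). Of 5 tyrosine phosphatases other than *Ptpn1*, *Ptpra* was the 1 called, and all 5 had a negative estimate, with a median of -0.22. Of all genes tested, 76.9% had a negative estimate. Without KO51, 4 of the 5 were negative. With median-of-ratios scaling 3 were negative and 2 positive, with a median of -0.07 and 0 called.

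Among 17 FoxO target genes none passed and 10 had a negative estimate (median -0.05). Without KO51 1 passed, *Pck1*, and with title style as a block 4 did, against 10.6% of all genes with that block: *Pck1*, higher, and *Pdk4* (-0.85, adjusted p = 0.0123, limma), *Sesn1* (-0.31, adjusted p = 0.0242) and *Txnip* (-0.46, adjusted p = 0.0388), lower. The last 3 were named after their values were seen. *G6pc*, the last step of glucose output, ranged from 73.2 to 289 FPKM in WT livers and had a log2 difference of 0.23 (SE 0.26), and 0.34 without KO51. *Pck1*, the gluconeogenic enzyme PEPCK, had a *Gpr180*KO mean of 156.4% of WT, and none of the 9 *Gpr180*KO livers was below the WT mean. Its log2 difference of 0.71 had an adjusted p of 0.0613 (limma), which was 0.0407 without KO51, 0.0445 without W131, 0.0263 without W134, 0.0472 with median-of-ratios scaling and 0.0268 with title style as a block, but 0.386 in diet-first libraries alone. *Igfbp1*, another target, ranged from 22.6 to 85.6 FPKM in WT livers, with a log2 difference of -0.28 (SE 0.35), and -0.23 without KO51; it was named after its values were seen.

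Of 6 insulin-induced metabolic genes, 2 passed with title style as a block, against 10.6% of all genes. With KO51 also left out 4 passed, against 1989 of 10867 genes tested. In the fit over all libraries without a block, 1, *Acaca*, passed adjustment. Estimates were negative for *Acaca*, *Fasn* (-0.81), *Scd1* (-0.36) and *Pnpla3* (-1.28) and positive for *Srebf1* (0.32), the gene of the transcription factor that drives lipid synthesis; those other than *Acaca* were named after their values were seen, and their adjusted p values lay between 0.106 and 0.154 (limma).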

How the data were processed

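Poly(A) RNA of 18 HFD livers was sequenced by the authors as single reads and aligned to mm10 (GRCm38) with the TopHat Alignment application. The authors deposited 1 table of FPKM values with lower and upper bounds per mouse; the tool that computed FPKM, its annotation and the confidence level of the bounds are not given in the sources used here. Values of entries sharing a symbol were summed, and 24 genes with a failed estimate in any library were left out. The FPKM of a library summed to 554796 to 718746.

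Members and gene lists were chosen with earlier results of these data known. Groups came from the sample labels. On log2(FPKM + 0.1), a scale that understates changes of low genes, genes averaging 1 FPKM or more were tested by limma (version 3.58.1, R 4.3.3; linear fit and moderated test with trend). P-values were adjusted by Benjamini-Hochberg across every gene in the test, with 0.05 as threshold. Ratios were compared by two-sided exact permutation over 48620 splits of all libraries (Python 3.11.15, numpy 2.4.6, pandas 2.3.3). With 1 library left out there were 24310 splits, and 70 in number-first and 252 in diet-first livers. Steps were tested on simulated data. Each library is 1 mouse.

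Named were all members, *Gpr180*, the pathway genes called in each list or otherwise its first 2 tested, and the 3 genes most correlated with each member. Some genes of these lists are not reported here. Clock genes and cell markers were named after their values were seen. Transcript lengths (GENCODE M21) matched 94.4% of genes tested. Alternatives were other pseudocounts, FPKM minimums, scalings and eBayes settings, title style as a block, each style alone, weights per library, and each library left out. Fits without KO51 combined with another choice, and the title style contrast, were added after seeing the data. Replicate numbers follow the order of the records and pair no samples. Figures were drawn with matplotlib 3.10.9.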

Additional observations from a re-analysis of the deposited data

Results flagged for a closer look

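Of 32 groups of 9 values checked (members, *Gpr180* and the 5 ratios in each genotype), 5 had an extreme library whose gap to its neighbour exceeded 0.49 of the group's range, which chance gives in about 1 in 20 groups. Of the 5, 4 were values of KO51: *Insr* at 6.74 FPKM, *Pik3ca* at 2.96 FPKM, the log2 ratio of *Foxo1* to *Foxo3* at 1.84, and that of *Insr* to *Ptpn1* at 0.52. The other was the log2 ratio of *Pik3r1* to *Pik3ca* in KO54, at 1.33.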

How the results depend on the processing

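No paired analysis was possible because replicate numbers were given in the order of the records. The count of members called by genotype stayed at 0 except for 1 (*Ptpn1*) with title style as a block and KO51 left out, 1 (*Insr*, higher) with median-of-ratios scaling as well, and a range of 0 to 1 over the fits that each left out 1 library. The interaction gave 0 members under every alternative run. For title style the count of 0 became 1 with median-of-ratios scaling and 4 with KO51 also left out (range 0 to 2 with 1 library left out). The count of ratios past the threshold was 0 to 1 with 1 library left out. The 2 other pathway genes called became 4 at a minimum mean of 0.1 FPKM, 0 with 75th percentile scaling, 1 with TPM scaling, 9 with title style as a block, 7 with median-of-ratios scaling and the block, 5 in number-first and 0 in diet-first libraries, 7 with weights per library, and 4, 12 and 11 without KO51 with median-of-ratios scaling, the block and both; with 1 library left out the range was 0 to 5. All genes called were 513, against 313 with no minimum, 291 and 253 with median-of-ratios and 75th percentile scaling, 837 and 238 at minimum means of 0.1 and 5 FPKM (at 5, *Irs1* and *Irs2* were not tested), 1153 with the block, 1331 with weights, 693 and 1 in the number-first and diet-first libraries, and 129 to 920 with 1 library left out. Of the calls, 464 were lower and 49 higher, against 145 and 146 with median-of-ratios scaling. With that scaling and the block 631 of 10824 genes were called. Without KO51 the calls were 531 of 10859 with median-of-ratios scaling, 1989 of 10867 with the block and 1438 of 10859 with both. For title style 1788 of 10824 genes were called with median-of-ratios scaling, and 4351 of 10859 with KO51 also left out.

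Log2 differences between genotypes that changed sign were these. With median-of-ratios scaling, with or without the block, *Insr* was 0.098, *Pik3ca* 0.090, *Akt2* 0.13, *Foxo1* 0.13, *Grb2* 0.045, *Gsk3a* 0.030 and *Mapk8* 0.011; with 75th percentile scaling *Insr* was 0.024, *Pik3ca* 0.017, *Akt2* 0.052 and *Foxo1* 0.054. In number-first libraries *Insr* was 0.11, *Irs2* 0.27, *Akt1* 0.0020, *Akt2* 0.071, *Foxo1* 0.13, *Foxo3* 0.071, *Pik3cb* 0.023 and *Gsk3a* 0.061, and the ratios of *Irs1* to *Irs2* and *Pik3r1* to *Pik3ca* were -0.18 and 0.036. Weights per library gave 0.12 for *Insr*, 0.14 for *Irs2*, 0.027 for *Akt2* and 0.065 for *Foxo1*. *Irs1* was -0.016 with TPM scaling and -0.034 in diet-first libraries. Without KO51 and with median-of-ratios scaling, *Insr* was 0.22, *Irs2* 0.27, *Pik3r1* 0.046, *Pik3ca* 0.17, *Akt2* 0.11, *Foxo1* 0.18, *Foxo3* 0.038, *Grb2* 0.034, *Gsk3a* 0.0081, *Mapk8* 0.072 and *Mapk9* 0.043. Without it and with the block, *Insr* was 0.10, *Irs2* 0.18, *Pik3ca* 0.045 and *Foxo1* 0.083. With all 3 choices, *Insr* was 0.23, *Irs2* 0.30, *Pik3r1* 0.063, *Pik3ca* 0.17, *Akt2* 0.10, *Foxo1* 0.21, *Foxo3* 0.070, *Grb2* 0.032, *Gsk3a* 0.0051, *Mapk8* 0.090 and *Mapk9* 0.050. Of the title style differences, median-of-ratios scaling turned *Insr* to 0.0051, *Pik3ca* to 0.064, *Akt2* to 2.35e-05 and *Ptpn1* to 0.015, and without KO51 *Insr* to 0.12, *Pik3ca* to 0.14 and *Ptpn1* to 0.034; it turned the interaction of *Pik3ca* to 0.089. With 1 library left out, genotype differences that changed sign in some fit ranged from -0.058 to 0.18 for *Irs1*, -0.086 to 0.060 for *Foxo1*, -0.087 to 0.099 for *Insr*, -0.38 to 0.15 for *Irs2*, -0.095 to 0.042 for *Pik3ca* and -0.049 to 0.0052 for *Akt2*. Interactions ranged from -0.31 to 0.17 for *Irs1* and -0.10 to 0.17 for *Pik3ca*, and title style differences from -0.15 to 0.026 for *Insr*, -0.0040 to 0.49 for *Irs2*, -0.088 to 0.042 for *Pik3ca* and -0.031 to 0.022 for *Akt1*. Causes other than the choices themselves were not tested.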
